A study of Mus musculus with 28 samples.

Results

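The E-protein genes Tcf3, Tcf4 and Tcf12 and the Id genes Id1, Id2, Id3 and Id4 were taken by name, as 7 of 21887 protein-coding genes, and described by the intervals of H3K27ac over each gene and within 100 kb of it. H3K27ac is histone H3 with an acetyl group on lysine 27, found at promoters and enhancers in use. Intervals had been called once, on pooled reads of 4 libraries with 1 per population (FNP, Mx, Md and PA2 in the labels), all from cranial neural crest cells that were sorted from wild-type mice at E10.5. These cells give rise to most of the facial skeleton. The list has no replicates, its sequencing depth is unknown, and no interval is tied to a population. The values below therefore describe the pool of the 4 populations, have no error and carry no test. The other 24 of the 28 libraries of the series (Ezh2cKO and HoxA2OE genotypes, E8.5 progenitors, other antibodies and inputs) were not analysed here.

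E proteins are class I basic helix-loop-helix (bHLH) factors, present in most tissues, that pair with tissue-restricted bHLH factors such as Twist1 and bind DNA at E-box sequences. Id proteins have a helix-loop-helix but no basic region, so they pair with E proteins and keep them off DNA. Id genes are well-known targets of bone morphogenetic protein (BMP) signalling, and the balance between E and Id proteins is known to influence which partner Twist1 takes in the developing skull.

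All 7 genes had an interval within 1 kb of an annotated gene end, against 65.0% of all protein-coding genes. The score of an interval is the authors' value, which the caller by convention derives from the −log10 of its q-value, multiplied by 10, and which depends on read depth. The highest gene-end score was 10180 at Tcf12, 8444 at Tcf3 and 3530 at Tcf4. It was 1718 at Id4, 1253 at Id1, 1041 at Id3 and 396 at Id2. Every E-protein gene thus had a higher score than every Id gene, with a median of 8444 for the 3 E-protein genes and 1147 for the 4 Id genes, beside a median of 610 over all protein-coding genes. A gene-end score of at least 1116, the median of the 20724 intervals at ends of coding genes, was reached by Tcf3, Tcf4, Tcf12, Id1 and Id4, 5 of the 7, against 44.4% of all protein-coding genes. The order rests on 1 pooled list, so no spread says which neighbours in it differ. Where only intervals lying across the terminal base of a gene were counted, Tcf3 and Id4 were left, 2 of 7, against 32.6% of all protein-coding genes.

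The bases before each start show how the acetylated intervals sat around it. The RefSeq start table (GRCm38.p6, the build of the list) held 7 starts for 5 of the genes, namely Tcf3, Tcf12 with 3 starts, Id2, Id3 and Id4. Tcf4 and Id1 had no entry. The 250 bases before 6 of these starts are printed 5′ to 3′, with bases inside an acetylated interval in capitals. They are shown because they differ in how far the intervals reach across the start.
Tcf3, chr10:80433636-80433885 (- strand): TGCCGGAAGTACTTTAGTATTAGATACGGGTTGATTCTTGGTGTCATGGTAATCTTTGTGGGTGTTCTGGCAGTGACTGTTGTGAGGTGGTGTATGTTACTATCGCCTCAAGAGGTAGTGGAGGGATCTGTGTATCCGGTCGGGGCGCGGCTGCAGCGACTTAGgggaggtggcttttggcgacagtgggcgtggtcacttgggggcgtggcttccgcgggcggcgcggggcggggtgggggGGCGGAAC
Tcf12, outer start, chr9:72111820-72112069 (- strand): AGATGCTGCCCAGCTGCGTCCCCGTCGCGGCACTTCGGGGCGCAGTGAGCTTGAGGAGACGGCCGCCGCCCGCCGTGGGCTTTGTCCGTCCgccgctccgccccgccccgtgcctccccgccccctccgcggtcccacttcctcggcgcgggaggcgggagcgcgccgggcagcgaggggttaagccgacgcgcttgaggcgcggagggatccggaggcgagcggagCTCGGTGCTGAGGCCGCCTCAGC
Tcf12, internal start, chr9:71896097-71896346 (- strand): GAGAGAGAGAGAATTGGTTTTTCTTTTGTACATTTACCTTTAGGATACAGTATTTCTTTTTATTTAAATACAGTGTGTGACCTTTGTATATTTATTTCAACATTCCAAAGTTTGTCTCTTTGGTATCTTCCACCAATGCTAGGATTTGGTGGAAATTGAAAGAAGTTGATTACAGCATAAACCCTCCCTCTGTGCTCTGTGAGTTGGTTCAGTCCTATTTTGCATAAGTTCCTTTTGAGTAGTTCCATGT
Id2, chr12:25096093-25096342 (- strand): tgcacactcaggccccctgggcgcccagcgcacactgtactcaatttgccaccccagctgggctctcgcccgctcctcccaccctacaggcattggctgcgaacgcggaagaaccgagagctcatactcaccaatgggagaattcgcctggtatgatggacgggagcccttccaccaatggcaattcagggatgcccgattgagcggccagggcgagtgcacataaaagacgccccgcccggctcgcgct
Id3, chr4:136143572-136143821 (+ strand): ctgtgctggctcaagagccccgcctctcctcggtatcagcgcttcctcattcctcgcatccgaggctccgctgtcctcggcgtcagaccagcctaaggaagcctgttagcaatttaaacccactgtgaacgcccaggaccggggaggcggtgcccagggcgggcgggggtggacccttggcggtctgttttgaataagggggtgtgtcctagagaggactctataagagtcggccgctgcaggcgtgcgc
Id4, chr13:48260866-48261115 (+ strand): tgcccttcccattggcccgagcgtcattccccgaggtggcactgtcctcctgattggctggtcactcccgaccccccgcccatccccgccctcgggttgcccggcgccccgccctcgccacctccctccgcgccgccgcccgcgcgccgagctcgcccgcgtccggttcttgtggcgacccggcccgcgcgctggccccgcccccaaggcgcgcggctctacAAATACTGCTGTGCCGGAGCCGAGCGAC

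In these windows 172 of 250 bases before the Tcf3 start lay in an interval, 114 before the outer Tcf12 start and all 250 before the internal Tcf12 start. For the Id genes the counts were 28 at Id4 and 0 at Id2 and Id3. Over the 13821 listed coding starts with an interval within 1 kb, the median was 133 of 250 bases, and 18.6% had 0. The Id windows and the outer Tcf12 window thus lay below that median, and the Tcf3 window and the internal Tcf12 window above it.

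At Tcf3 and at the outer Tcf12 start the acetylation was split by a short unmarked stretch just before the start. At Tcf3 (start at 80433635 on chromosome 10, minus strand) an interval of 1471 bp with a score of 8444 ran from 8 bp before the start into the gene, and another of 275 bp with a score of 5375 lay farther upstream. At the outer Tcf12 start (72111819 on chromosome 9, minus strand) an interval of 1220 bp with a score of 10180 began 23 bp before the start, with one of 357 bp and a score of 2179 upstream of it. The same Tcf12 interval also covered the start listed at 72111201.

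Id4 also had an interval beginning just before the start and another upstream, with lower scores. There the upstream interval had the higher score and lay 326 bp from the start. At Tcf3 and the outer Tcf12 start this distance was 87 and 160 bp, and the upstream score was the lower. At Id2 and Id3 the start lay outside any interval. At Id4 (start at 48261116 on chromosome 13, plus strand) an interval of 1463 bp with a score of 1310 began 28 bp before the start, and one of 325 bp with a score of 1718 lay upstream. The Id4 interval also lay within 1 kb of an end of the non-coding gene A330033J07Rik, which the table lists on the opposite strand, and acetylation there cannot be assigned to either. At Id3 (start at 136143822 on chromosome 4, plus strand) the start fell in a gap of 363 bp. The interval after this gap began 80 bp downstream with a score of 1041, and the one before it ended 284 bp upstream with a score of 152. At Id2 (start at 25096092 on chromosome 12, minus strand) the nearest interval began 102 bp downstream of the start. That interval had a score of 396 and spanned 1704 bp, most of the gene, with a percentile of 98.4 by width and of 32.2 by score among intervals at coding gene ends. Id1, on chromosome 2 from 152736251 to 152737410, had intervals of 658 bp with a score of 1005, of 925 bp with a score of 1253 and of 325 bp with a score of 95 around its ends. The intervals scoring 1005 and 1253 stood on either side of its left annotated end.

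Of the 7 listed starts, 5 lay inside an interval, 1 in a gap between intervals and 1 had an interval on 1 side within 1 kb. All starts of Tcf12 are among the 5, and its outer start and that at 72111201 share an interval. Over all 21263 listed coding starts, 40.4% lay inside an interval and 13.9% in a gap. Among the 13821 with an interval within 1 kb, as all 7 had, these shares were 62.1% and 21.4%. Intervals over a coding start reached a median of 240 bp upstream of it, and 38.3% of them reached at most 100 bp. The reaches of 8, 23 and 28 bp at Tcf3, the outer Tcf12 start and Id4 were among these short ones, while the internal Tcf12 start had 265 bp.

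**Figure D1:**
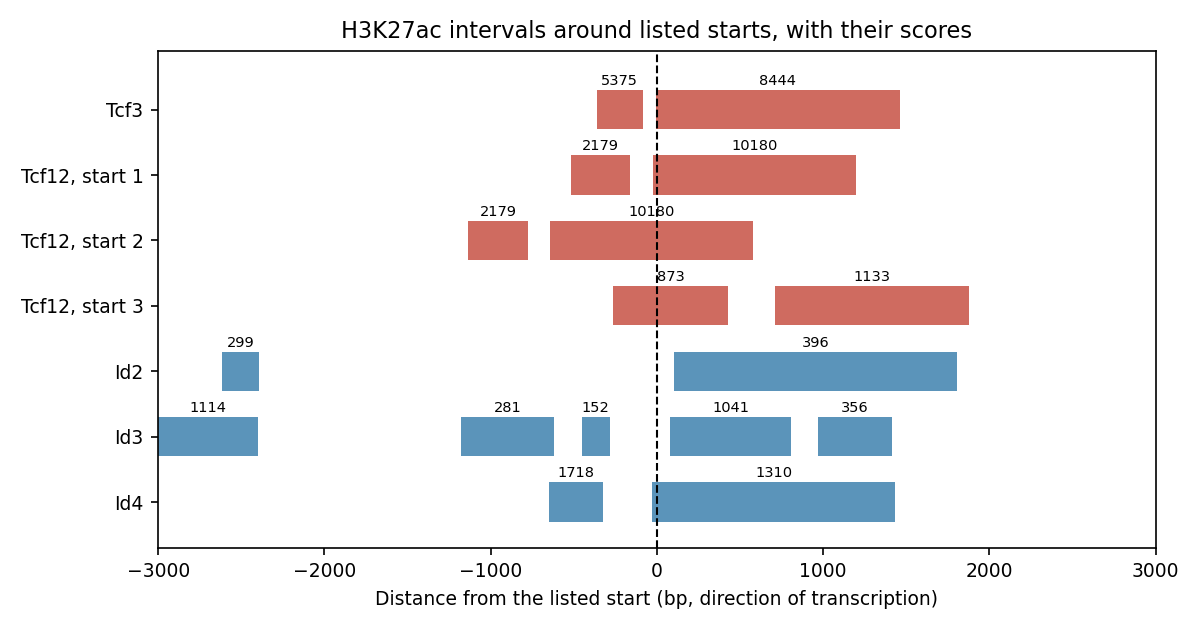
H3K27ac intervals within 3000 bp of the 7 listed starts of Tcf3, Tcf12, Id2, Id3 and Id4, oriented in the direction of transcription, with the score of each interval above its bar and the start as a dashed line. Tcf12 starts run from the outer to the internal one, bars are cut at the frame, and the starts of Tcf3, Tcf12 (start 1) and Id4 sit at the edge of a wide interval, while those of Id2 and Id3 lie outside any.

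Short sequences were also counted before the listed starts, with 0 to 3 copies of each. Whether the members differ in these small counts beyond chance was not tested. CCAAT, a box bound by the factor NF-Y and searched on both strands, occurred 3 times before Id2, 2 times before Id4 and 2 times before the internal Tcf12 start. It had 0 copies in the windows of Tcf3, Id3 and the other Tcf12 starts. Of all listed coding starts, 35.4% had it. The E-box CANNTG, which reads the same on both strands, had 1 copy before Tcf3, Id2 and each of the outer 2 Tcf12 starts, and 0 before Id3, Id4 and the internal Tcf12 start, against a share of 62.8% of listed coding starts with at least 1 copy. The copies before Id2 and the outermost Tcf12 start read CAGCTG, which 12.1% of listed coding starts had. GGCGCC had 1 copy before Id2 and Id4 and 0 elsewhere, against 12.3% of listed coding starts with it. GTCT had 1 or 2 copies before Id2, Id3 and each Tcf12 start and 0 before Tcf3 and Id4, against 81.6%. TATAAA and CACCTG had 0 copies in every member window, against 11.6% and 16.9%. The internal Tcf12 window had a GC content of 34.8%, against 76.8% before the outer start and a median of 55.6% over listed coding starts.

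Tcf4, known as E2-2, is a long gene, 345 kb on chromosome 18 from 69343429 to 69687967, and intervals were spread along it. It held 46 intervals, 13.4 per 100 kb, a percentile of 92.5 among the 990 protein-coding genes of at least 200 kb, whose median was 5.39 per 100 kb. When the gene was divided into 4 equal lengths from the left annotated end, these held 12, 7, 12 and 15 of them. Their median score was 102, near the median of 111 over the whole list, and 20 of the 46 scored under 100.

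Strong intervals inside the long genes, away from both ends by over 1 kb and with a score of at least 1116, were taken as positions where an internal start could lie. Of the 990 long genes, 24.0% had 1 or more and 7.58% had 2 or more. Tcf4 had 2. The stronger, with a score of 5861 and 894 bp, lay 2.35 kb inside the left annotated end (69345782 to 69346675), beyond the gene-end interval that scored 3530. With a gene-end window of 2.5 kb this interval counts as one at the end. The other, with a score of 1601 and 704 bp, lay 249 kb inside (69592322 to 69593025) and was followed by an interval of 1438 bp with a score of 607. No start is listed here for Tcf4, so neither was matched to one.

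Tcf12, known as HEB, spans 268 kb on chromosome 9 from 71844252 to 72111893 and was marked mainly at 2 places. It held 17 intervals, 6.35 per 100 kb, a percentile of 55.4 among the long genes. Besides the outer start, acetylation stood at the start listed inside the gene at 71896096. An interval of 695 bp with a score of 873 covered that start, and another of 1166 bp with a score of 1133 lay 712 bp from it (71894219 to 71895384). The interval scoring 1133 was the only one inside Tcf12 and over 1 kb from both ends past the limit of 1116, and that scoring 873 fell short of it. Between the outer start and the internal one the gene was sparsely marked. Right after the outer start 53 kb held no interval, from 72057627 to 72110622, and after 1 interval with a score of 80 another 70.4 kb was free, from 71987020 to 72057441. Of the 17 intervals, 8 lay in the one of 4 equal lengths that was farthest from the outer start. Tcf3, known as E2A, at 24.4 kb the shortest E-protein gene (chromosome 10, 80409541 to 80433976), held 2 intervals, both at its start, and none in the rest of its length.

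**Figure D2:**
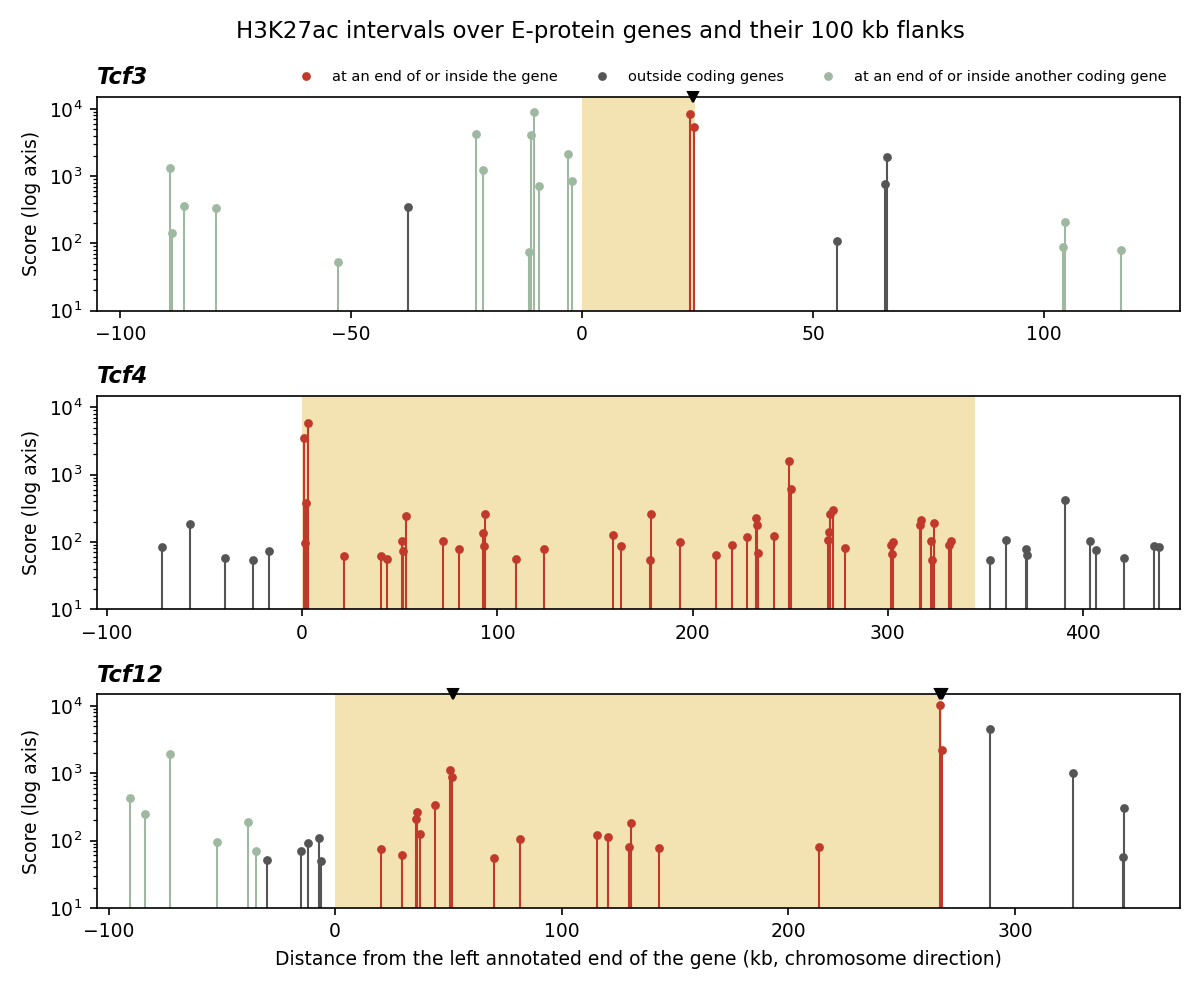
Scores of H3K27ac intervals (log axis) over Tcf3, Tcf4 and Tcf12 (shaded) and 100 kb on either side, against distance in kb from the left annotated end, with listed starts as triangles on the upper frame. Tcf4 carries 46 intervals along its length, Tcf12 shows high scores at its outer start and around the internal one, and most intervals around Tcf3 lie at ends of or inside other coding genes.

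Over gene and flanks, the 7 genes drew 215 intervals. The genes lie on 7 chromosomes, so no interval was counted for more than 1 of them. Of the 215, 15 lay at an end of the gene itself, 61 inside it, 27 at an end of another coding gene, 34 inside another coding gene, 8 at an end of a non-coding gene and 70 elsewhere outside coding genes. Tcf4 had 61, Tcf12, Id1 and Id3 had 33 each, Tcf3 had 22, Id2 19 and Id4 14. Per 100 kb of gene and flanks, Id1 and Id3 had 16.4 intervals each, both at a percentile of 97.7 among all protein-coding genes. Tcf4 had 11.2, Tcf3 9.80, Id2 9.39, Tcf12 7.06 and Id4 6.83, beside a median of 6.38 over all protein-coding genes. The median was 9.80 for E-protein genes and 12.9 for Id genes, a ratio of 0.761. It was 0.653 in the flanks alone. All 4 Id values came from genes of 1.16 to 4.91 kb, in which 1 or 2 intervals set the density inside the gene, at 20.4 to 127 per 100 kb. Over gene and flanks these few intervals count little, whereas the long Tcf4 and Tcf12 add their bodies. In the flanks alone the median was 8 for E-protein genes and 12.2 for Id genes.

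Many intervals around Id1, Id3 and Tcf3 lay nearer to another coding gene. Counting only intervals whose nearest coding gene was the member left 11 of 33 at Id1, 13 of 33 at Id3 and 2 of 22 at Tcf3. It left 12 of 19 at Id2, 26 of 33 at Tcf12 and all of the 61 at Tcf4 and of the 14 at Id4. The ratio of E-protein to Id density was then 0.898. Tcf3 stands among closely spaced genes, and the highest score in its flanks, 8992, lay at Mbd3, which encodes a subunit of the NuRD chromatin complex, 10.1 kb downstream of Tcf3. For Id1 it was 7198 at H13, a peptidase gene, at 65.2 kb, and for Id3 it was 8467 at Rpl11, a ribosomal protein gene, at 90.4 kb.

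**Figure D3:**
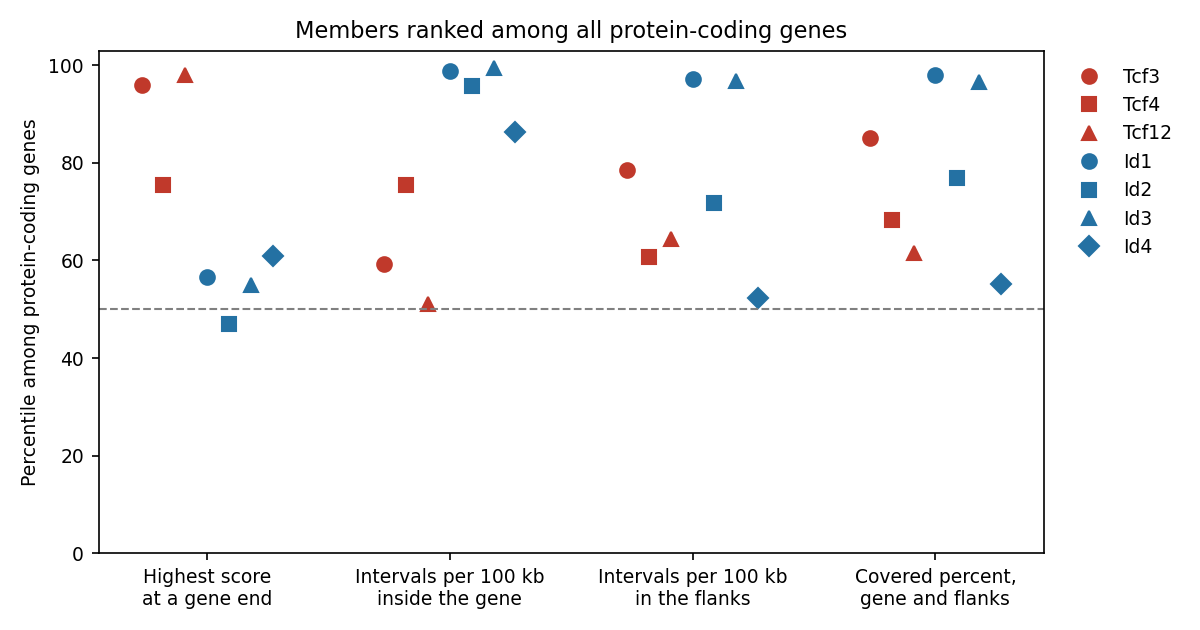
Percentile of each gene among 21887 protein-coding genes for 4 measures, with E-protein genes in red, Id genes in blue and the median as a dashed line. Tcf3, Tcf4 and Tcf12 rank above all 4 Id genes by gene-end score (75.5 to 98.1 against 47 to 61), while Id1 and Id3 rank highest in the flanks (97.3 and 96.7).

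Outside coding genes and away from their ends, 3 of the 4 Id genes had flank intervals that scored above their own gene ends. At Id2 an interval of 1611 bp with a score of 1544, 3.60 kb upstream of the gene (25099695 to 25101305), stood above its gene-end score of 396. At Id3 an interval of 1707 bp with a score of 3390, 7.83 kb upstream (136134282 to 136135988), stood above 1041. At Id4 the highest, with a score of 3236, lay 32.5 kb upstream (48227973 to 48228656), above 1718, and at an end of the non-coding gene Gm36183.

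The remaining 4 genes had no such interval above their own gene-end score. At Id1 the highest was 726, 6.53 kb left of the gene, against 1253 at the gene end. At Tcf12 it was 4612 over 1103 bp, 20.8 kb upstream (72132652 to 72133754), against 10180. It was 1893 at Tcf3 and 426 at Tcf4, against gene-end scores of 8444 and 3530. In all, 3 of 7 genes, all of them Id genes, had a flank interval above their own gene end, against 18.4% of the 14235 coding genes with a gene-end interval. This count depends on the own gene-end score, which was lower at every Id gene than at every E-protein gene. The 18.4% is not matched for that score. By score alone, the highest of these flank intervals was the 4612 at Tcf12. Which gene such an interval acts on was not measured.

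**Figure D4:**
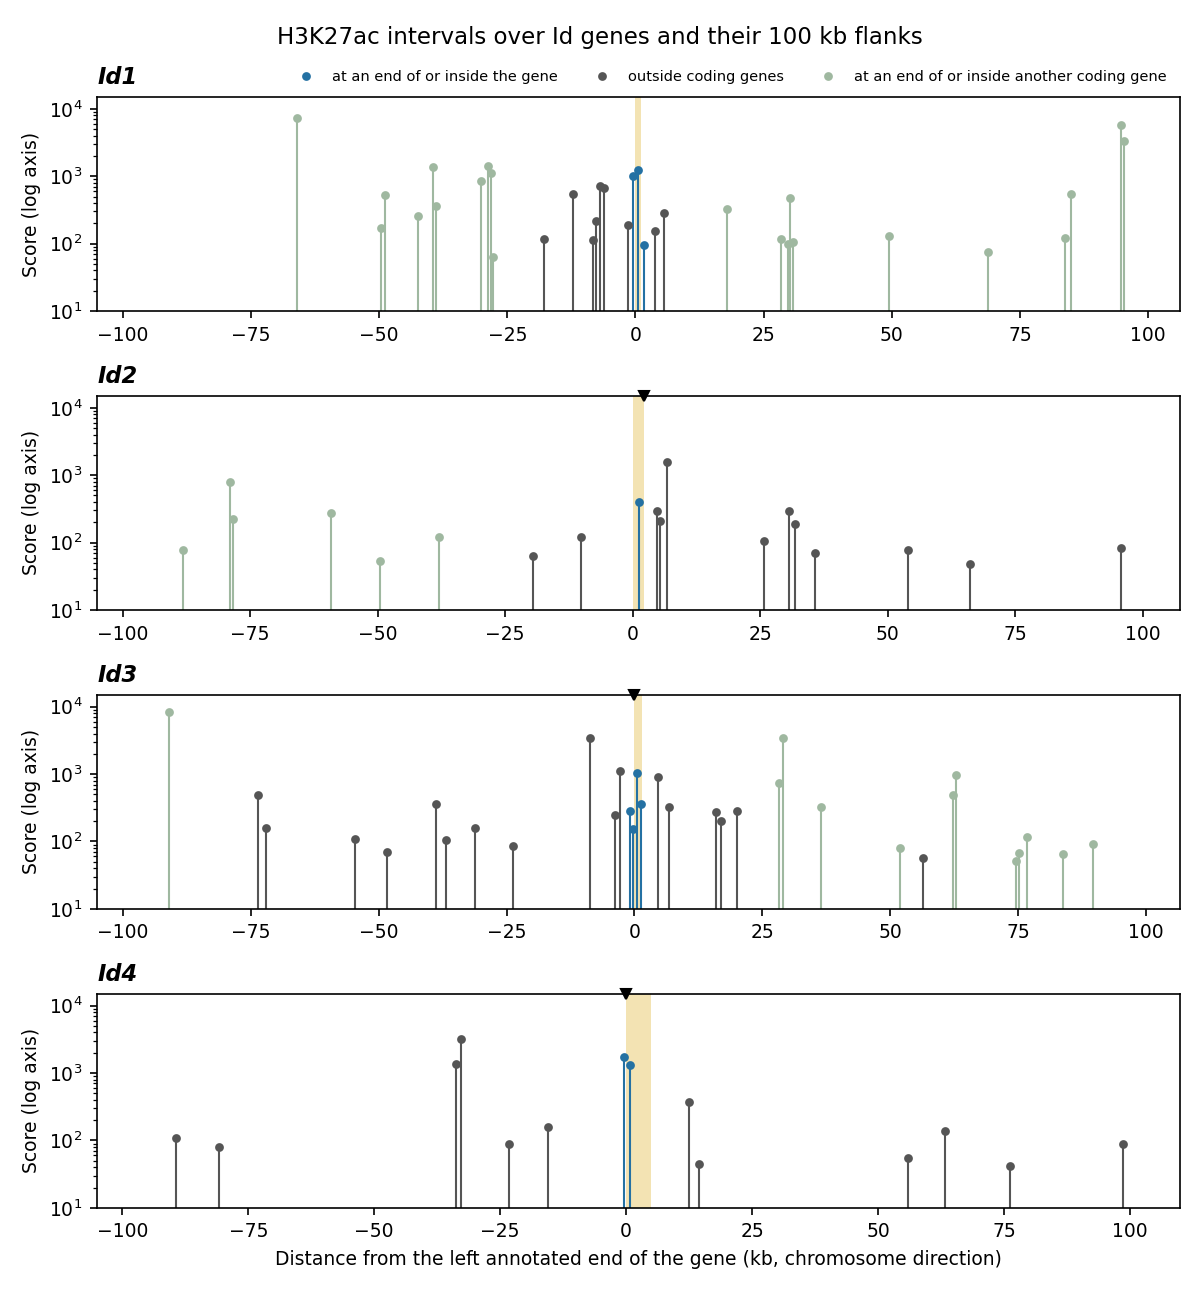
Scores of H3K27ac intervals (log axis) over Id1, Id2, Id3 and Id4 (shaded) and 100 kb on either side, against distance in kb from the left annotated end, with listed starts as triangles on the upper frame. Dark grey points outside coding genes stand above the gene's own blue points at Id2 (1544 against 396), Id3 (3390 against 1041) and Id4 (3236 against 1718), and not at Id1 (726 against 1253).

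The dimerisation partners of E proteins were divided by lineage. Of 10 bHLH genes of mesenchyme, 9 had a gene-end interval, against 65.0% of all protein-coding genes. Their median top score was 458, below the 610 of all protein-coding genes. A score of at least 1116 was reached by 2 of the 10, against 44.4% of all protein-coding genes. Twist1, a regulator of crest mesenchyme, had the highest at 3067 and Twist2 1702. Hand1, which marks distal arch mesenchyme, had 210, and Tcf21 was the one with none. Of 13 bHLH genes of other lineages, 6 had one, below the 65.0% of all protein-coding genes, and none scored above 380. The muscle gene Myf6 had that score and the blood gene Tal1 had 224, while Atoh1, a neuronal gene, and Lyl1, a blood gene, were among those with none. All 10 genes of the BMP pathway, which acts upstream of Id genes, had one, with a median of 5422. The signal transducer Smad5 had 12938 and the receptor gene Bmpr1a 8670, and the lowest were 1749 at Smad6, an inhibitor of the pathway, and 1324 at Smad9. Per 100 kb of flanks, the median was 10 for mesenchyme partners, 3.50 for other-lineage partners and 6 for BMP pathway genes, beside 6 over all protein-coding genes. Some listed genes are neighbours (Mesp1 and Mesp2, Myf5 and Myf6) and share intervals.

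**Figure D5:**
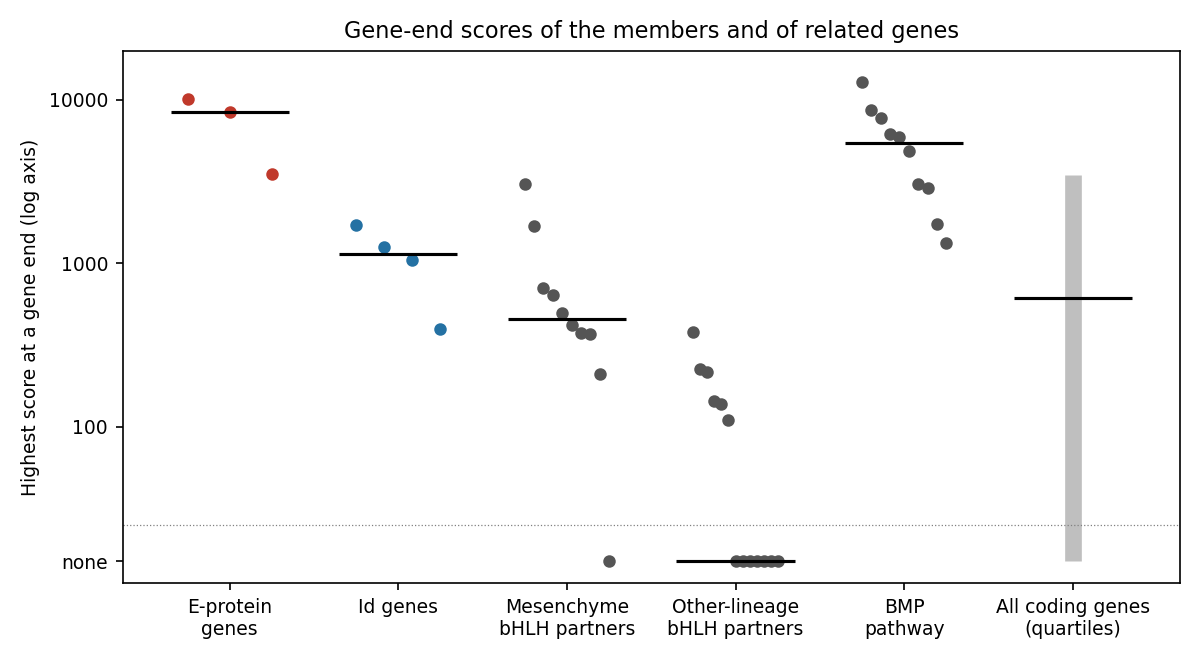
Highest score at a gene end (log axis) for each E-protein gene, Id gene and gene of 3 related lists, with list medians as black lines and, for all coding genes, the quartiles as a grey bar; genes without an interval stand at none. E-protein genes (3530 to 10180) sit in the range of the BMP pathway (1324 to 12938), Id genes (396 to 1718) overlap the mesenchyme partners (none to 3067), and no other-lineage partner exceeds 380.

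The labelled cell type was checked by markers. All 10 markers of crest mesenchyme had a gene-end interval, with top scores from 87 at Prrx1 to 4697 at Prrx2. Of markers of other cells, 2 of 6 for blood, 6 of 6 for endothelium, 2 of 6 for epithelium, 4 of 6 for neurons and 4 of 5 for muscle had one, beside the 65.0% of all protein-coding genes. The median top score was 1178 for crest mesenchyme, 132 for endothelium, 98 for neurons and 143 for muscle, and 0 for blood and for epithelium. Over all protein-coding genes it was 610. A score of at least 1116 was reached by 5 of 10 crest markers, against 44.4% of all protein-coding genes. The highest top score was 391 for endothelium (Kdr), 380 for muscle (Myf6) and 4646 for neurons (Elavl4), close to the 4697 of Prrx2. Twist1, Neurod1, Myod1, Myf5, Myf6 and Myog also stand in the partner lists above, so the marker check partly repeats those. Of the blood markers, Spi1 had 1492 and Klf1 1480, and Hba-a1, Hbb-bt, Gata1 and Ptprc had none. Of the epithelial markers, Grhl2 had 1367 and Epcam 439, and Cdh1, Esrp1, Grhl3 and Trp63 had none. E-protein and Id genes are also used by those cells, and their part in the scores above was not tested.

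Genes with the most similar pattern were sought over 4 measures of the 1 list, namely the interval density inside the gene and in the flanks, the covered percent and the gene-end score, each as a percentile. The summed percentile difference ran from 1.82 to 7.31 over the 3 nearest genes of each member. Nearest to Tcf3 were Nudc, Ndst2 and Eif2ak4, to Tcf4 Ptprf, Tgif2 and Ksr1, and to Tcf12 Pik3r3, Ptpn2 and Mob1a. Histone genes, which are short and clustered, were nearest to Id3 (H2ac15, H2bc15 and H4c2) and, after Lgals1, to Id1 (H2ac4 and H3c2). Nearest to Id2 were Cd37, Popdc2 and Zic5, and to Id4 Faap24, Pomgnt2 and Abcd2.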

How the data were processed

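H3K27ac intervals of cranial neural crest cells at E10.5 were analysed. Per the text deposited with the list, the authors merged the reads of 4 wild-type libraries (FNP, Mx, Md and PA2) and called intervals using MACS2 (version 2.1.3.3; no model, shift 0, reads extended to 141 bp, q-value at most 0.001, duplicate reads retained). The text names no control library. Bowtie 1.1.1, bcl2fastq 2.17 and the build GRCm38, also given as mm10, come from the submitters' processing notes. The deposited score of each of the 125826 intervals is a whole number from 31 up, with a median of 111, and by MACS2 convention is 10 times −log10 of the q-value.

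Starts were shifted to count from 1. Genes came from the RefSeq table of GRCm38.p6 (all 7 members and all listed genes matched) and starts from RefSeq's start table, which held 17492 of the 21887 protein-coding genes. An interval belonged to a gene end, gene or flank when it overlapped it by at least 1 bp, and to a gene end or start within 1 kb. Percentiles count 50% of ties. Named genes were the 7 members, the 2 highest and 2 lowest of each related list by gene-end score, with ties taken by name, the 3 most alike genes per member, and neighbours at the highest flank score. Marker genes given with values, and flank intervals compared with the own gene end, were chosen after their values were seen. The members and lists were chosen with earlier results of these data known. Python 3.11.15, pandas 2.3.3, numpy 2.4.6 and matplotlib 3.10.9 were used. The counting was tested on simulated intervals over 200 genes. Alternatives were gene-end windows, score filters, flank sizes, the overlap rule and nearest-gene counting.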

Additional observations from a re-analysis of the deposited data

How the results depend on the processing

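All 7 members kept a gene-end interval with a window of 2.5 kb and with scores of at least 100 or at least the list median, and 2 with the gene-end base covered. The 215 intervals over gene and flanks became 143 with scores of at least 100, 126 at the list median, 343 with flanks of 200 kb and 139 when counted for the nearest coding gene only, and stayed within 1.5 times otherwise. Single E-protein genes (7.06 to 11.2 intervals per 100 kb) and Id genes (6.83 to 16.4) overlapped, and all alternatives re-use the same list. The ratio of E-protein to Id median density was below 1 under every alternative run. It was 0.761, against 0.601 with scores of at least 100, 0.480 at the list median, 0.888 with flanks of 200 kb, 0.653 in the flanks alone, 0.622 by covered percent and 0.898 for the nearest coding gene only. The 3 strong intervals inside Tcf4 and Tcf12 became 2 with a gene-end window of 2.5 kb, which drops the Tcf4 interval scoring 5861, and 2 by a width of at least 1 kb, where the Tcf4 interval scoring 607 counts in place of those scoring 5861 and 1601. They became 5 when intervals at gene ends were let in, 35 with a limit of 100 and 28 with the list median as the limit. Single-member counts stayed within 1.5 times in 21 of 42 alternatives. Stricter filters and other spans change counts by construction. No paired analysis was possible because the list is 1 call on merged reads, with no value per library, so no library could be left out either. Unknown depth limits how far a gene without an interval can be called unmarked.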

Other observations

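Some flank intervals lay at ends of non-coding genes, at distances from 621 to 91738 bp from the member. The nearest, with a score of 281, lay at an end of Gm42329 and also within 1 kb of an end of Id3. Of the 8 flank intervals at an end of a non-coding gene and of no coding gene, 3 lay around Id4, 2 around Tcf3 and 1 each around Tcf4, Id2 and Id3. At Id4 they included the pair at Gm36183, with scores of 3236 and 1378, and 1 at A330048O09Rik with a score of 370, 7492 bp downstream. At Tcf3 the pair at Gm40716 had scores of 1893 and 767. The other interval at Gm42329, 2398 bp upstream of Id3, had a score of 1114, above the 1041 at Id3 itself.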
